A study of Yarrowia lipolytica with 8 samples.

Results

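The genes described here are those annotated as proteins of the cytosolic ribosome of *Yarrowia lipolytica*. They were taken by a rule on their annotation, as the genes whose first orthology name in the deposited tables was a large or small subunit ribosomal protein with a eukaryotic protein code (an e or Ae at the end of the code, or LP0, LP1, LP2 or SA). The rule found 88 of 6394 genes, 53 of the large subunit and 35 of the small subunit, and all 88 were present in both deposited tables. They carried 78 orthology numbers, of which 10 were shared by a pair of genes. The strain was ACA DC 50109, grown on glucose and glycerol together in nitrogen limited medium, and all samples were taken after nitrogen limitation. In the controlled culture the dissolved oxygen (pO2) was held at a set point, and in the uncontrolled culture it was left to itself. Each culture was sampled after glycerol limitation (phase II) and before it (phase I), which gave 4 groups of 2 libraries, controlled phase II, controlled phase I, uncontrolled phase II and uncontrolled phase I. The labels tell the groups of a culture apart by number only, and the numbers differ between the cultures. Controlled phase I and II are labelled 1 and 2, and uncontrolled phase I and II are labelled 2 and 3. Whether the samples of a phase were taken at matching times in the 2 cultures was not examined, which bears on every comparison between them. The phases come from the study's text and supplement, except that uncontrolled phase I was taken as before glycerol limitation because the other uncontrolled group was given as after it.

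The ribosome is built from a small subunit, which holds the mRNA and the decoding site, and a large subunit, which joins the amino acids. Most of its proteins are needed in equal numbers, and in yeasts their genes are known to be transcribed together, at a high level in growing cells and at a lower level when nutrients run short or cells are stressed. In *Saccharomyces cerevisiae* the mRNAs of ribosomal proteins are among the most abundant of fast growing cells. Mitochondria hold ribosomes of their own, whose proteins are encoded by other nuclear genes with names of the bacterial type.

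Expression was given as FPKM, the sequenced fragments of a gene scaled for its length and for all mapped fragments of the library, a unit in which levels of different genes can be set side by side. Every FPKM is a share of the mRNA of its library, so that more mRNA of a gene and less mRNA of the other genes cannot be told apart. The steps between the lowest values gave about 5060000 to 5360000 fragments per library, and 5901 to 6201 genes reached an FPKM of at least 1. The summed FPKM of a library lay between 871797 and 1101126. Whether the 2 biological replicates of a group came from separate fermentations is not given in the sources used here, so the p-values measure only the spread between these libraries. The controlled and the uncontrolled culture stood in separate tables, with no scaling beyond the mapped fragments stated, which bears on every comparison between the cultures.

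The annotation of 78 of the 88 members also gave a matched protein with a 40S or 60S ribosomal protein name. The other 10 were not so named. L8e YALI0_D12606g and L23e YALI0_F17512g had a best protein match named as a mitochondrial ribosomal protein, L24e YALI0_B09779g matched the ribosome biogenesis protein RLP24, and for 7 the matched protein gave no such name. Those 7 were L3e YALI0_C12496g, L17e YALI0_F01056g, L28e YALI0_E14212g, L38e YALI0_B11308g, S5e YALI0_D08470g, S10e YALI0_C11473g and S23e YALI0_A03003g. For 11 members, the orthology entry was not that of the gene itself. Some results are given for the 78 and the 10 separately, among them the median change after glycerol limitation in each culture.

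The members were abundant in 3 of the 4 groups and far less so in controlled phase I. The median member stood at 1369 and 1371 FPKM in controlled phase II, against 169 and 167 FPKM in controlled phase I. In uncontrolled phase II the median was 2636 and 2453 FPKM, against 1314 and 1441 FPKM in uncontrolled phase I. The 2 libraries of each group lay close together beside these distances. The median of all genes moved much less, from library to library between 35.035 and 53.295 FPKM. The most abundant member of every group was S27Ae YALI0_F09790g, a small subunit protein made as a fusion with ubiquitin, with 4625 and 4578 FPKM in controlled phase II, against 1547 and 1545 FPKM in controlled phase I, and 6404 and 5802 FPKM in uncontrolled phase II, against 4208 and 4416 FPKM in uncontrolled phase I. Among all genes it ranked 7 in controlled phase II, 74 in controlled phase I, 5 in uncontrolled phase II and 20 in uncontrolled phase I by mean FPKM.

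**Figure D1:**
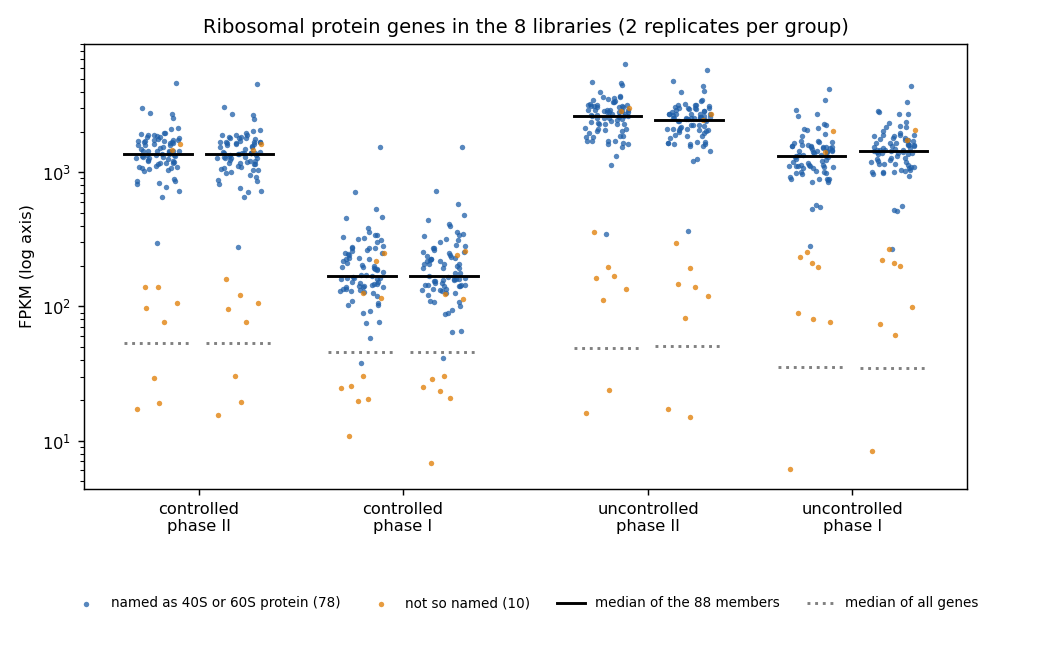
FPKM of the 88 members in each of the 8 libraries on a log axis, as points, with the median of the members as a black line and the median of all genes as a dotted line. The points of the 2 libraries of controlled phase I lie lowest, around a median of 169 and 167 FPKM, and those of uncontrolled phase II highest, while several members not named as 40S or 60S proteins lie below the rest in all libraries.

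S25e YALI0_C03872g, S23e YALI0_A20746g, a protein of the decoding site, and L19e YALI0_E25025g, which helps to bridge the subunits, followed it. S25e had 3005 and 3059 FPKM in controlled phase II, against 459 and 441 FPKM in controlled phase I, and 4753 and 4800 FPKM in uncontrolled phase II, against 2895 and 2864 FPKM in uncontrolled phase I. For S23e the values were 2710.3 and 2692 FPKM in controlled phase II, against 535 and 586 FPKM in controlled phase I, and 4676 and 4403 FPKM in uncontrolled phase II, against 3483 and 3368 FPKM in uncontrolled phase I. L19e had 2763 and 2740.5 FPKM in controlled phase II, against 715 and 729 FPKM in controlled phase I, and 4007 and 3992 FPKM in uncontrolled phase II, against 2120.1 and 2190.4 FPKM in uncontrolled phase I. These 4 genes made up the 3 most abundant members of every group. The order of the 78 named members was kept in large part, with a rank correlation of their mean levels of 0.75 between controlled phase II and I, 0.88 between uncontrolled phase II and I, and 0.70 between controlled phase I and uncontrolled phase II, the lowest of the 6 pairs of groups. The SD of their levels on the log2(FPKM + 1) scale was 0.54 in controlled phase II, 0.79 in controlled phase I, 0.53 in uncontrolled phase II and 0.59 in uncontrolled phase I, highest in controlled phase I. Over all 88 members it was lowest in that group, with an SD of 1.45 in controlled phase II, 1.10 in controlled phase I, 1.51 in uncontrolled phase II and 1.31 in uncontrolled phase I. These correlations and spreads are descriptions over genes that share their libraries, and genes are not independent replicates.

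All members together took 13.2% and 13.1% of the summed FPKM in controlled phase II, against 2.12% and 2.15% in controlled phase I, and 21.0% and 19.8% in uncontrolled phase II, against 10.56% and 11.99% in uncontrolled phase I. The group means were 13.2% ± 0.13 in controlled phase II, 2.14% ± 0.020 in controlled phase I, 20.4% ± 0.81 in uncontrolled phase II and 11.3% ± 1.01 in uncontrolled phase I (SD, n = 2 each). No 2 groups overlapped. The share was thus 6.16 times as high after as before glycerol limitation in the controlled culture and 1.81 times in the uncontrolled culture. The median member was 25.8 and 25.7 times the median of all genes in controlled phase II, but 37.4 and 41.1 times in uncontrolled phase I. By this measure these 2 groups stood in the other order. Controlled phase I stayed lowest (3.69 and 3.65) and uncontrolled phase II highest (53.8 and 48.8). Members held 43 and 41 of the 100 places of highest FPKM in the libraries of controlled phase II, against 1 in each of controlled phase I, and 65 in each of uncontrolled phase II, against 12 and 21 in uncontrolled phase I.

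**Figure D2:**
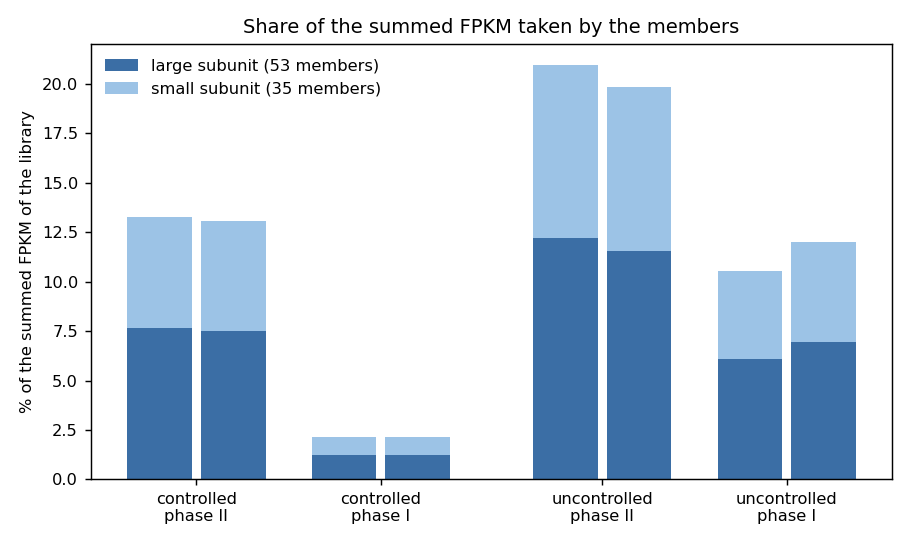
Share of the summed FPKM of each library taken by the 53 large subunit members (dark) and the 35 small subunit members (light), 1 bar per library. Both parts are lowest in controlled phase I, where the bars reach 2.12% and 2.15%, and highest in uncontrolled phase II, at 21.0% and 19.8%.

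The subunits had levels close to each other in every group. The median large subunit member stood at 1430.1 and 1387 FPKM in controlled phase II, against 189 and 192 FPKM in controlled phase I, and the median small subunit member at 1324 and 1278 FPKM, against 159.5 and 159 FPKM. The ratio of the large to the small subunit median was 1.08 and 1.09 in controlled phase II, 1.18 and 1.21 in controlled phase I, 1.02 and 1.04 in uncontrolled phase II and 1.01 and 1.00 in uncontrolled phase I. The ratio was thus a little higher in the controlled than in the uncontrolled libraries. By individual gene, 85 of 88 members had both libraries of controlled phase I below the 6 other libraries, where 21.4% of the 6278 genes tested did, and 81 had both libraries of uncontrolled phase II above the 6 others, where 15.9% did. Between these ends the order was mixed. Both controlled phase II libraries lay above both of uncontrolled phase I for 32 members (61.0% of all genes) and below them for 32 (28.9%), and the groups overlapped for 24 (10.1%).

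The first comparison was that of the controlled culture after against before glycerol limitation. At an adjusted p under 0.05 and a log2 fold change of at least 2, 77 of 88 members rose, where 9.52% of the 6218 genes tested did, and 1 fell, where 4.29% did. The 77 were 46 of the large and 31 of the small subunit, and 73 of them belonged to the 78 named members. The median log2 fold change was 2.92 for the 78 named members and 1.83 for the other 10. The median member had a log2 fold change of 2.87, or 7.29-fold, beside a median of 0.13 over all genes tested, and the quartiles of the members were 2.49 and 3.10. At the adjusted p alone, 85 rose (45.6% of all genes) and 2 fell (36.0%). In 85 members both phase II libraries lay above both phase I libraries (50.6% of all genes), and in 3 below (40.4%). The tests were those of limma on log2(FPKM + 1), with p-values adjusted over all genes by the Benjamini-Hochberg method, and fold changes are on that scale.

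The largest rise was that of L24e YALI0_B09779g, the gene matched to RLP24, a protein that in *Saccharomyces cerevisiae* holds the place of L24 on the large subunit precursor. It had 139 and 160.3 FPKM in controlled phase II, against 10.9 and 6.84 FPKM in controlled phase I, a log2 fold change of 3.96 ± 0.20 SE, adjusted p = 7.01e-06. Its lowest value rested on about 19 fragments, fewer than that of any other member. S2e YALI0_E14465g, a protein beside the mRNA entry channel, had 1168 and 1185 FPKM in controlled phase II, against 93.2 and 93.5 FPKM in controlled phase I, with a log2 fold change of 3.64 ± 0.029 SE, adjusted p = 1.63e-08. L13e YALI0_B12826g had 1736 and 1663 FPKM in controlled phase II, against 141 and 133 FPKM in controlled phase I, with a log2 fold change of 3.62 ± 0.040 SE, adjusted p = 2.36e-08. In these 3 genes the 2 phases lay far apart beside the distance between replicates.

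At the other end, L3e YALI0_C12496g, which shares its orthology number with the far more abundant L3e YALI0_C21560g, had 19.0 and 19.2 FPKM in controlled phase II, against 127 and 124 FPKM in controlled phase I, and fell (log2 fold change -2.65 ± 0.058 SE, adjusted p = 2.43e-07). L17e YALI0_F01056g had 17.2 and 15.4 FPKM in controlled phase II, against 24.7 and 25.1 FPKM in controlled phase I, and fell as well (log2 fold change -0.59 ± 0.097 SE, adjusted p = 0.00178). L38e YALI0_B11308g had 106 and 106 FPKM in controlled phase II, against 116 and 113 FPKM in controlled phase I, and did not pass the test (log2 fold change -0.11 ± 0.042 SE, adjusted p = 0.0531). All 3 are among the 10 members without a 40S or 60S name. Of the 78 named members none fell, and their smallest changes were those of S27Ae YALI0_F09790g (1.57 ± 0.018 SE, adjusted p = 2.39e-08) and S30e YALI0_F14663g (1.68 ± 0.056 SE, adjusted p = 1.24e-06). S30e had 1088 and 1042 FPKM in controlled phase II, against 313 and 349.8 FPKM in controlled phase I. In animals S30e is made as a fusion with a ubiquitin-like protein. Of the 8 members that rose without reaching a log2 fold change of 2, L19e, L36e, L39e, S27Ae and S30e were named members and L23e YALI0_F17512g, S23e YALI0_A03003g and S5e YALI0_D08470g were not.

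**Figure D3:**
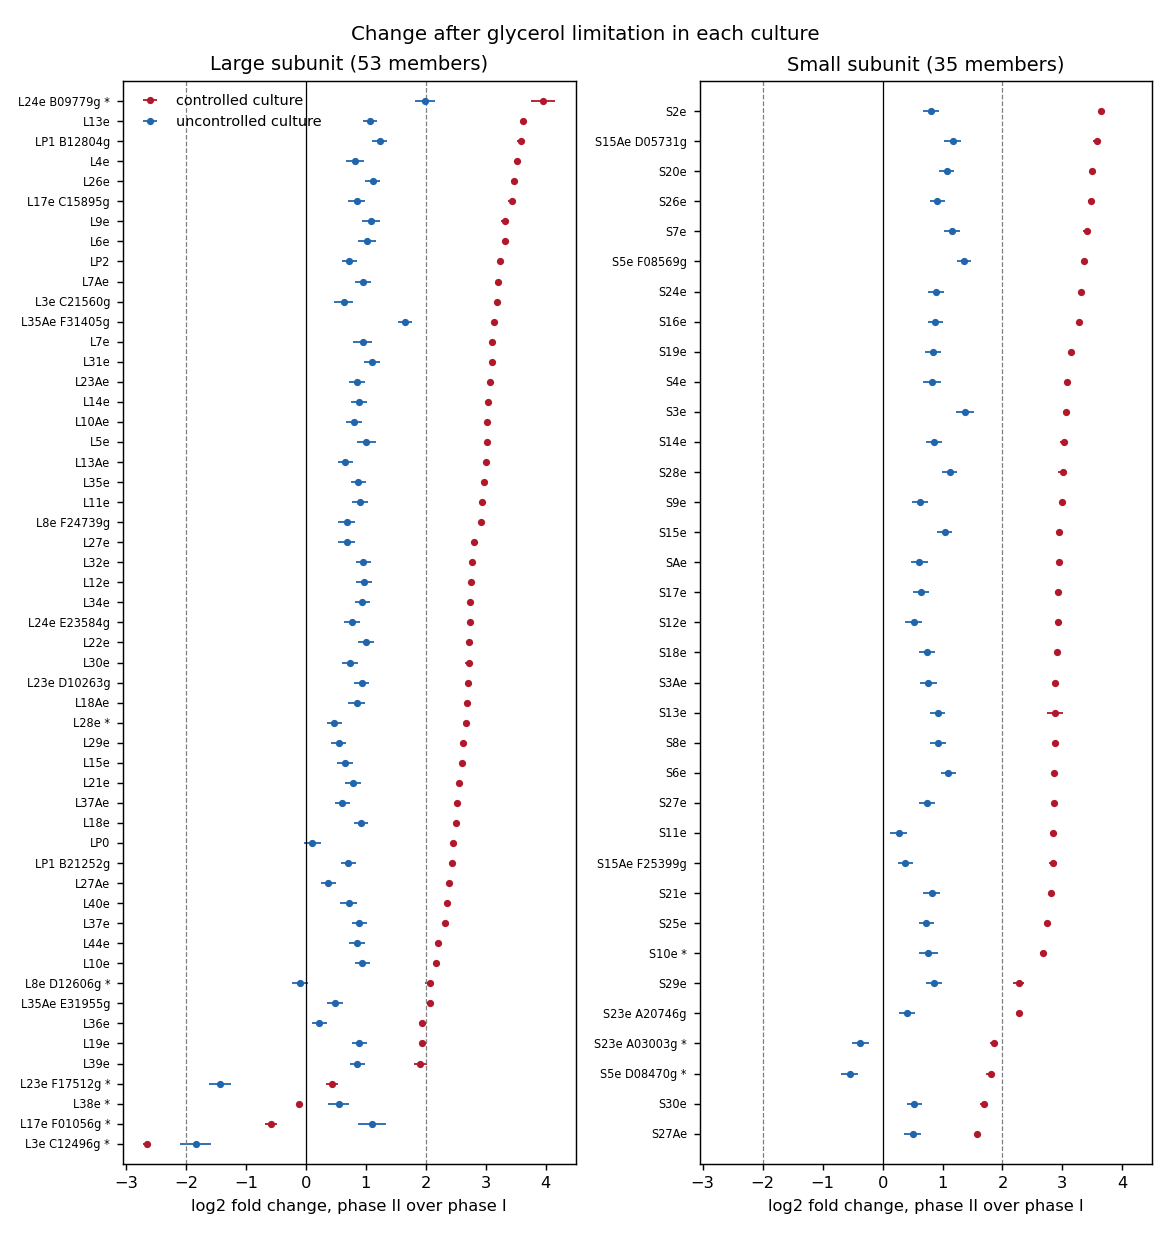
Log2 fold change of phase II over phase I on the log2(FPKM + 1) scale for each member, large subunit left and small subunit right, with the controlled culture in red, the uncontrolled culture in blue, and bars of 1 SE. Dashed lines stand at 2 and -2 and a star marks the 10 members not named as 40S or 60S proteins, and 77 red points but no blue one lie past the dashed line at 2.

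In the uncontrolled culture, after against before glycerol limitation, the median change of the members was closer to that of all genes than in the controlled culture, and on the FPKM scale a larger share of the members than of all genes rose at the adjusted p. No member passed the fold change minimum in either direction at an adjusted p under 0.05 by limma, where 11.3% of the 6185 genes tested rose and 5.01% fell past it, and with the same minimum and an unadjusted p under 0.05 the count was also 0. At the adjusted p alone, 80 of 88 members rose (48.9% of all genes) and 3 fell (21.5%), and 84 passed an unadjusted p under 0.05. The median log2 fold change of the members was 0.84, or 1.79-fold, but that of all genes tested was 0.49, so that the members stood 0.35 above it. For the 78 named members the median was 0.85, and 75 of them rose at the adjusted p. For the other 10 the median was 0.19, below that of all genes, and 5 rose and 3 fell. In 82 members both phase II libraries lay above both phase I libraries (57.9% of all genes), and in 5 below (28.2%). When the libraries were scaled by the median of ratios, which brought the median of all genes to 0.03, 34 members rose and 5 fell at the adjusted p, with a median of 0.36. The shares of all genes that rose or fell with this scaling were not counted. A rise of single members in this culture therefore holds on the FPKM scale, and for most of them not after this scaling.

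L24e YALI0_B09779g had the largest change here too, with 358 and 298 FPKM in uncontrolled phase II, against 89.5 and 74.3 FPKM in uncontrolled phase I, a log2 fold change of 1.99 ± 0.16 SE, adjusted p = 4.93e-05. L35Ae YALI0_F31405g, a large subunit protein, had 1721 and 1633 FPKM in uncontrolled phase II, against 537 and 524 FPKM in uncontrolled phase I, with a log2 fold change of 1.66 ± 0.12 SE, adjusted p = 2.87e-05. S3e YALI0_E23694g, a protein of the mRNA entry site, had 2740.3 and 2406 FPKM in uncontrolled phase II, against 890.2 and 1096 FPKM in uncontrolled phase I, with a log2 fold change of 1.38 ± 0.15 SE, adjusted p = 0.000195. The 3 kept a log2 fold change above 0 and their adjusted p under 0.05 with the median of ratios. L3e YALI0_C12496g had 23.8 and 15.1 FPKM in uncontrolled phase II, against 80.8 and 61.4 FPKM in uncontrolled phase I, and fell (log2 fold change -1.84 ± 0.26 SE, adjusted p = 0.000594). L23e YALI0_F17512g, named as mitochondrial, had 112 and 81.7 FPKM in uncontrolled phase II, against 253 and 267 FPKM in uncontrolled phase I, and fell (log2 fold change -1.43 ± 0.18 SE, adjusted p = 0.000330). S5e YALI0_D08470g had 162 and 146 FPKM in uncontrolled phase II, against 232 and 221 FPKM in uncontrolled phase I, and fell (log2 fold change -0.55 ± 0.13 SE, adjusted p = 0.00817). Its adjusted p was 0.0561 when the other genes were scaled to an equal sum and 0.0764 without replicate 2 of uncontrolled phase II. The members that did not pass were L36e YALI0_E30602g, L8e YALI0_D12606g, LP0 YALI0_B14146g, S11e YALI0_F20482g and S23e YALI0_A03003g.

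The replicate libraries of the uncontrolled culture differed in the members as a group. In uncontrolled phase II 78 of 88 members were higher in replicate 1, by a median of 0.11 on the log2 scale, and in uncontrolled phase I 75 were higher in replicate 2, with a median difference of -0.13, replicate 1 over replicate 2. The median of all genes differed between the same libraries by -0.05 and 0.04, replicate 1 over replicate 2. How many of all genes, or of genes as abundant as the members, were higher in the same replicate was not counted. In the controlled culture the median difference of the members was 0.02 in phase II and -0.01 in phase I. When any 1 of the 4 libraries of the uncontrolled culture was left out, the median log2 fold change of the members lay between 0.74 and 0.92. That of all genes tested lay between 0.41 and 0.51 in the same fits.

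Whether the change after glycerol limitation differed between the cultures was tested on all 8 libraries, as the log2 fold change of the controlled minus that of the uncontrolled culture. For 85 of 88 members the change was larger in the controlled culture at an adjusted p under 0.05 (29.1% of the 6278 genes tested), and for 3 it was smaller (38.1%). With a difference of at least 2, 48 members passed in the direction of the controlled culture (6.85% of all genes) and 0 in the other (11.8%), with 3 at an unadjusted p under 0.05 in that direction at any size. The median difference was 2.03 for the members and -0.20 for all genes. Of the 48, 25 were of the large and 23 of the small subunit. The count rested on the scaling, being 69 with the median of ratios and 39 with the other genes scaled to an equal sum, as the median member lies near the minimum of 2. The shares of all genes that passed with these scalings were not counted.

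The largest differences were those of S2e YALI0_E14465g (2.83 ± 0.13 SE, adjusted p = 1.12e-06), L4e YALI0_C06820g (2.70 ± 0.15 SE, adjusted p = 3.08e-06) and L17e YALI0_C15895g (2.59 ± 0.16 SE, adjusted p = 5.69e-06). L4e and L17e line the tunnel through which the new protein leaves the ribosome. S2e had 1715 and 1675 FPKM in uncontrolled phase II, against 889 and 1050.1 FPKM in uncontrolled phase I, beside its values in the controlled culture above. L4e had 1188 and 1147 FPKM in controlled phase II, against 102 and 99.98 FPKM in controlled phase I, and 1852 and 1639 FPKM in uncontrolled phase II, against 893 and 1083 FPKM in uncontrolled phase I. L17e YALI0_C15895g had 1519 and 1403 FPKM in controlled phase II, against 142 and 127 FPKM in controlled phase I, and 2940.5 and 2546 FPKM in uncontrolled phase II, against 1394 and 1662 FPKM in uncontrolled phase I. In each of these, controlled phase I was the group that stood apart. The 3 members with a difference below 0 were L17e YALI0_F01056g (-1.69 ± 0.24 SE, adjusted p = 0.000392), L3e YALI0_C12496g (-0.81 ± 0.30 SE, adjusted p = 0.0412) and L38e YALI0_B11308g (-0.66 ± 0.18 SE, adjusted p = 0.0117). The last 2 did not pass with the median of ratios, with adjusted p of 0.137 for L3e YALI0_C12496g and 0.102 for L38e, and that of L3e also failed in 6 of the 8 fits that left out 1 library (0.0869 to 0.121).

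**Figure D4:**
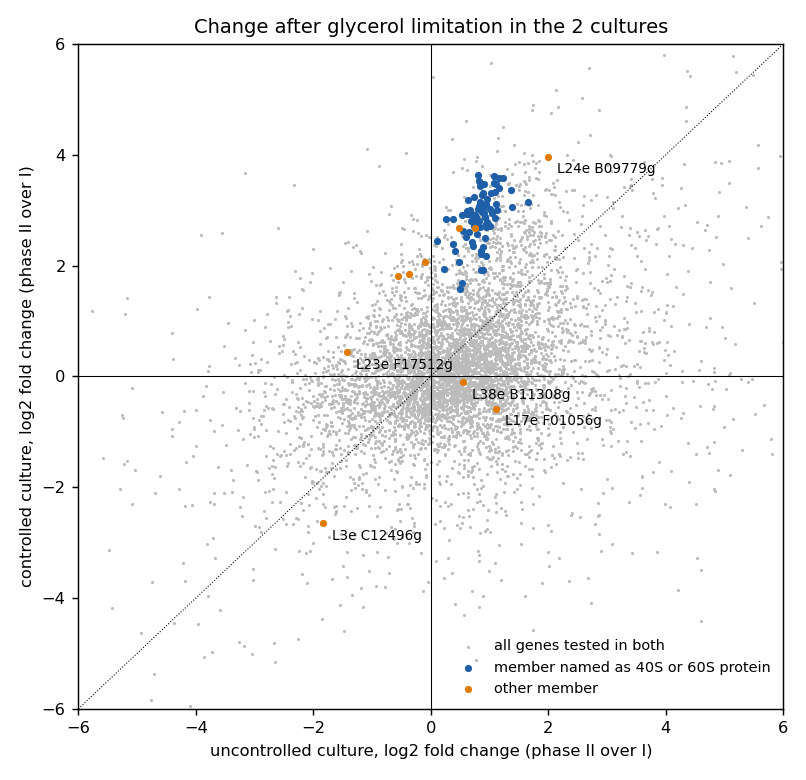
Log2 fold change of phase II over phase I in the uncontrolled (horizontal) and the controlled culture (vertical) for 6145 genes tested in both, in grey, with the 78 named members in blue and the 10 others in orange, of which 5 are labelled, and equal changes on the dotted line. The blue points form 1 group between 1.57 and 3.64 on the vertical and between 0.10 and 1.66 on the horizontal axis, and 70 genes lie outside the axes.

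Over the 78 named members, the log2 fold changes of the 2 cultures, which share no library, had a rank correlation of 0.50, so that members with a larger change in one culture tended to have a larger change in the other. Among the 78, members with higher levels tended to have smaller changes. The rank correlation of the change in the controlled culture with the level in uncontrolled phase I was -0.45, and that of the change in the uncontrolled culture with the level in controlled phase I was -0.42. Over all 88 members these values were weaker, at -0.17 and -0.23, and the correlation of the changes in the 2 cultures was 0.57. The span of the gene on the chromosome, a median of 690.5 bases in the 78 and of 1248 over all genes, had a rank correlation of 0.02 with the change in the controlled and of -0.07 with that in the uncontrolled culture. These are descriptions over genes and carry no test.

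Between the cultures before glycerol limitation, 82 of 88 members were lower in the controlled culture at an adjusted p under 0.05 and a log2 fold change of -2 or less (9.18% of the 6158 genes tested), and 0 were higher past the minimum (14.4%), with 3 higher at an unadjusted p under 0.05 by limma without it. At the adjusted p alone, 85 were lower (30.9%) and 2 higher (47.2%). The median log2 fold change was -2.84, controlled over uncontrolled, while that of all genes was 0.31. No library of controlled phase I reached a library of uncontrolled phase I in 85 members (36.3% of all genes), and in 3 members both controlled libraries were above both uncontrolled ones (53.4%). The lowest were S15Ae YALI0_D05731g (-3.74 ± 0.13 SE, adjusted p = 3.81e-05), S11e YALI0_F20482g (-3.53 ± 0.090 SE, adjusted p = 2.52e-05) and L23e YALI0_F17512g (-3.53 ± 0.12 SE, adjusted p = 3.52e-05). S15Ae YALI0_D05731g had 76.0 and 66.1 FPKM in the controlled culture, against 879 and 1049 FPKM in the uncontrolled culture. For S11e, a small subunit protein, the values were 246 and 222 FPKM in the controlled culture, against 2621 and 2812 FPKM in the uncontrolled culture. L23e YALI0_F17512g had 19.9 and 23.5 FPKM in the controlled culture, against 253 and 267 FPKM in the uncontrolled culture. The 3 members with a log2 fold change above 0 were L17e YALI0_F01056g (1.66 ± 0.18 SE, adjusted p = 0.000906), L3e YALI0_C12496g (0.83 ± 0.15 SE, adjusted p = 0.00629) and L38e YALI0_B11308g (0.39 ± 0.14 SE, adjusted p = 0.0528), of which L38e did not pass.

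After glycerol limitation the members of the controlled culture were still lower, by a smaller distance. No member passed the fold change minimum in either direction at the adjusted p (1.82% of the 6209 genes tested were higher and 1.34% lower past it), also without adjustment of the p. At the adjusted p alone 84 members were lower in the controlled culture (21.5% of all genes) and 0 higher (28.5%), with 85 lower and 0 higher at an unadjusted p under 0.05 by limma. The median log2 fold change was -0.83, controlled over uncontrolled, beside 0.10 over all genes. In 85 members both controlled libraries were below both uncontrolled ones (33.8%), and in 1 above (45.8%). L23e YALI0_F17512g was lowest with 29.1 and 30.0 FPKM in the controlled culture, against 112 and 81.7 FPKM in the uncontrolled culture (log2 fold change -1.66 ± 0.17 SE, adjusted p = 0.00138). S15Ae YALI0_D05731g followed with 862 and 862 FPKM in the controlled culture, against 2277 and 2043 FPKM in the uncontrolled culture (-1.32 ± 0.075 SE, adjusted p = 0.000406), and then L37Ae YALI0_E34573g with 1647 and 1551 FPKM in the controlled culture, against 3684 and 3416 FPKM in the uncontrolled culture (-1.15 ± 0.071 SE, adjusted p = 0.000523). The member above in both controlled libraries was LP0 YALI0_B14146g, with 1688 and 1686 FPKM in the controlled culture, against 1554 and 1574 FPKM in the uncontrolled culture, a difference that did not pass the test (0.11 ± 0.057 SE, adjusted p = 0.167). L3e YALI0_C12496g (0.01 ± 0.23 SE, adjusted p = 0.966) and L17e YALI0_F01056g (-0.03 ± 0.14 SE, adjusted p = 0.893) came next in that order and did not pass either.

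The stalk of the large subunit, which recruits the elongation factors, is formed by LP0 with LP1 and LP2. LP0 YALI0_B14146g had 1688 and 1686 FPKM in controlled phase II, against 302 and 314 FPKM in controlled phase I, and rose (log2 fold change 2.45 ± 0.028 SE, adjusted p = 2.41e-08). In the uncontrolled culture it had 1554 and 1574 FPKM in uncontrolled phase II, against 1321 and 1602 FPKM in uncontrolled phase I, with phases that overlapped, and did not pass (log2 fold change 0.10 ± 0.14 SE, adjusted p = 0.532). It was the only one of the 78 named members without its highest levels in uncontrolled phase II. LP2 YALI0_F05808g had 1029 and 997 FPKM in controlled phase II, against 103 and 109 FPKM in controlled phase I (log2 fold change 3.24 ± 0.040 SE, adjusted p = 3.10e-08), and 1847 and 1911 FPKM in uncontrolled phase II, against 1108 and 1162 FPKM in uncontrolled phase I (log2 fold change 0.73 ± 0.12 SE, adjusted p = 0.00138). LP1 was present as a pair of genes. LP1 YALI0_B12804g had 783 and 709 FPKM in controlled phase II, against 58.1 and 64.5 FPKM in controlled phase I (log2 fold change 3.59 ± 0.069 SE, adjusted p = 1.43e-07), and 1333 and 1266 FPKM in uncontrolled phase II, against 548 and 558 FPKM in uncontrolled phase I (log2 fold change 1.23 ± 0.12 SE, adjusted p = 0.000110). LP1 YALI0_B21252g had 1085 and 1041 FPKM in controlled phase II, against 191 and 201 FPKM in controlled phase I (log2 fold change 2.43 ± 0.038 SE, adjusted p = 6.86e-08), and 1869 and 1863 FPKM in uncontrolled phase II, against 1088 and 1204 FPKM in uncontrolled phase I (log2 fold change 0.70 ± 0.13 SE, adjusted p = 0.00187). The 4 genes rose together in the controlled culture, and the less abundant LP1 gene had the largest log2 fold change of the 4 in each culture. In the uncontrolled culture the changes of LP2 and of LP1 YALI0_B21252g did not pass with the median of ratios (adjusted p = 0.144 and 0.201).

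SAe YALI0_A18205g, the small subunit protein whose animal form is also known as a laminin receptor, had 1295 and 1278 FPKM in controlled phase II, against 164 and 169 FPKM in controlled phase I (log2 fold change 2.94 ± 0.029 SE, adjusted p = 1.80e-08), and 1715 and 1621 FPKM in uncontrolled phase II, against 985 and 1210.1 FPKM in uncontrolled phase I (log2 fold change 0.61 ± 0.14 SE, adjusted p = 0.00706). Ubiquitin is made in yeasts in part as a fusion with the ribosomal proteins L40e and S27Ae. L40e YALI0_F08745g had 1715 and 1691 FPKM in controlled phase II, against 328 and 338 FPKM in controlled phase I (log2 fold change 2.35 ± 0.026 SE, adjusted p = 2.36e-08), and 2933 and 2738 FPKM in uncontrolled phase II, against 1581 and 1879 FPKM in uncontrolled phase I (log2 fold change 0.72 ± 0.14 SE, adjusted p = 0.00293). S27Ae YALI0_F09790g, whose values stand above, had a log2 fold change of 0.50 ± 0.13 SE, adjusted p = 0.0124 in the uncontrolled culture. L40e thus lay below the lower quartile of the members in the controlled culture, and S27Ae was lowest of the named ones. With the median of ratios the changes of SAe, L40e and S27Ae in the uncontrolled culture did not pass (adjusted p = 0.521, 0.239 and 0.945).

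In 10 cases 2 members shared an orthology number. In 3 of these pairs, LP1, L35Ae and S15Ae, both genes were named as 40S or 60S proteins. The L35Ae genes changed places. L35Ae YALI0_E31955g had 724 and 723 FPKM in controlled phase II, against 182 and 163 FPKM in controlled phase I, and 1638 and 1436 FPKM in uncontrolled phase II, against 1095 and 1098 FPKM in uncontrolled phase I. Against it, L35Ae YALI0_F31405g had 827 and 762 FPKM in controlled phase II, against 89.7 and 88.1 FPKM in controlled phase I, and 1721 and 1633 FPKM in uncontrolled phase II, against 537 and 524 FPKM in uncontrolled phase I. The ratio of their means, YALI0_E31955g over YALI0_F31405g, was 0.91 in controlled phase II and 1.94 in controlled phase I, and 0.92 in uncontrolled phase II and 2.07 in uncontrolled phase I. In both cultures the gene that was lower in phase I was thus slightly the higher one in phase II. Their log2 fold changes were 2.06 ± 0.053 and 3.14 ± 0.047 in the controlled culture, and 0.48 ± 0.13 and 1.66 ± 0.12 in the uncontrolled culture (SE). The difference between the genes of a pair was not tested. The study gives standard parameters for Cufflinks and does not describe how reads shared between similar copies were counted. How alike the sequences of a pair are was not examined, so the levels within these pairs are uncertain.

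The S15Ae genes kept their order and drew apart. S15Ae YALI0_D05731g had 862 and 862 FPKM in controlled phase II, against 76.0 and 66.1 FPKM in controlled phase I, and 2277 and 2043 FPKM in uncontrolled phase II, against 879 and 1049 FPKM in uncontrolled phase I. S15Ae YALI0_F25399g had 299 and 278 FPKM in controlled phase II, against 37.8 and 41.2 FPKM in controlled phase I, and 349.7 and 364 FPKM in uncontrolled phase II, against 282 and 268 FPKM in uncontrolled phase I. The ratio of their means was 2.99 in controlled phase II and 1.80 in controlled phase I, and 6.05 in uncontrolled phase II and 3.50 in uncontrolled phase I. The LP1 genes came closer, with a ratio of YALI0_B21252g over YALI0_B12804g of 1.42 in controlled phase II and 3.20 in controlled phase I, and of 1.44 in uncontrolled phase II and 2.07 in uncontrolled phase I. In each of these pairs, the order of the 2 log2 fold changes was the same in both cultures.

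**Figure D5:**
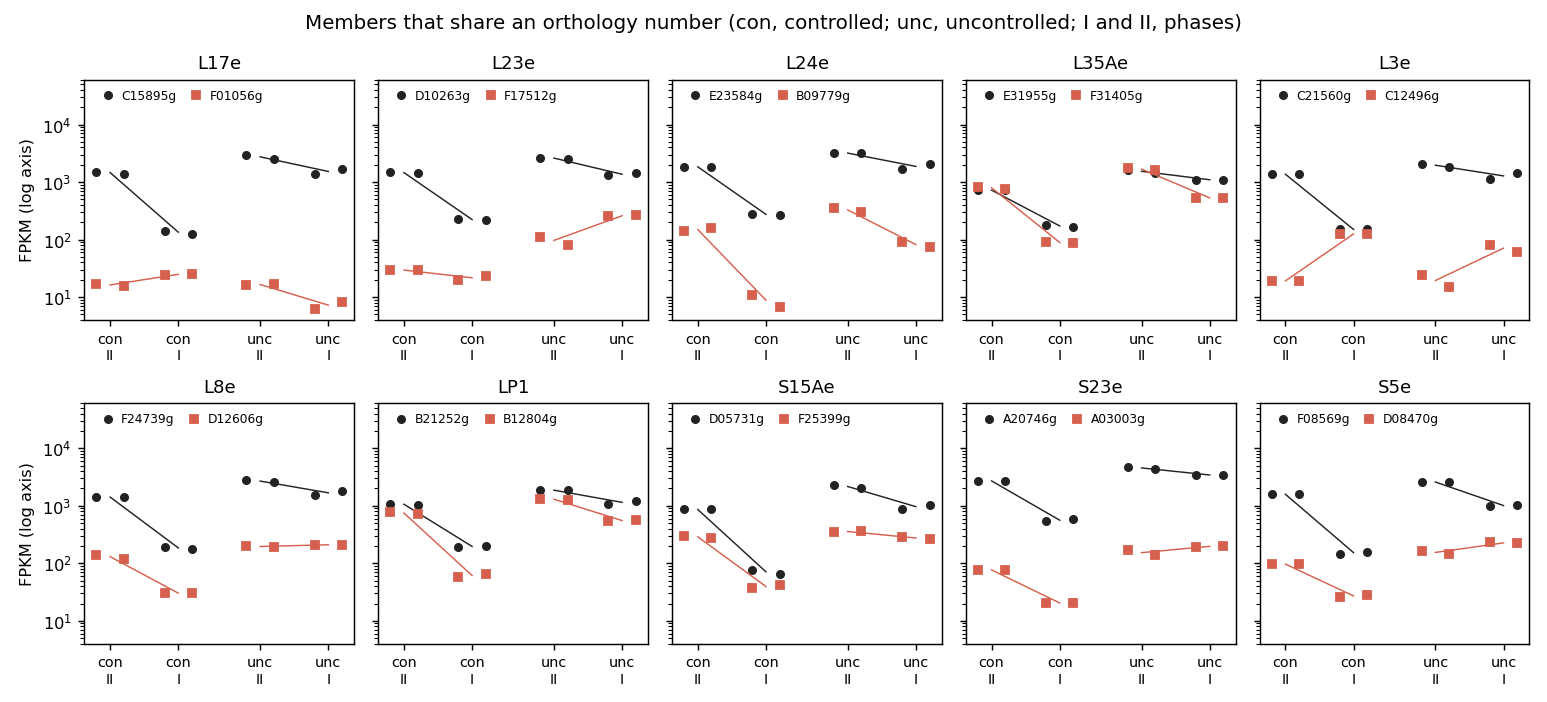
FPKM on a log axis of both members of each of the 10 pairs that share an orthology number, 1 point per library and a line between the group means of a culture. Both genes of L35Ae, LP1 and S15Ae lie higher in phase II than in phase I (with the median of ratios not so for L35Ae YALI0_E31955g and S15Ae YALI0_F25399g in the uncontrolled culture), while in L3e and L17e the red gene lies lower in phase II of the controlled culture, where the black one lies higher.

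In the other 7 pairs, 1 gene was a named member and the other was not, and the named one was the more abundant in every group. The distance was least for L3e in controlled phase I, where L3e YALI0_C21560g had 150.1 and 150 FPKM and L3e YALI0_C12496g 127 and 124 FPKM. In controlled phase II the same genes had 1357 and 1379 FPKM and 19.0 and 19.2 FPKM, 71.5 times apart in the mean. In S23e, S5e and L8e the minor gene rose with the major one in the controlled culture and did not in the uncontrolled culture. S23e YALI0_A03003g, with a weak match to its orthology entry, had 76.1 and 77.2 FPKM in controlled phase II, against 20.3 and 20.6 FPKM in controlled phase I (log2 fold change 1.86 ± 0.064 SE, adjusted p = 1.42e-06), and 167 and 139 FPKM in uncontrolled phase II, against 195 and 199 FPKM in uncontrolled phase I (log2 fold change -0.37 ± 0.15 SE, adjusted p = 0.0557). S5e YALI0_D08470g had 97.3 and 96.3 FPKM in controlled phase II, against 25.5 and 28.6 FPKM in controlled phase I (log2 fold change 1.80 ± 0.074 SE, adjusted p = 2.99e-06). With the median of ratios S23e YALI0_A03003g fell in the uncontrolled culture (-0.85, adjusted p = 0.00316), and so did L8e YALI0_D12606g (-0.58, adjusted p = 0.00671). L8e YALI0_D12606g, matched to RML2, a protein of the mitochondrial large subunit in *Saccharomyces cerevisiae*, had 139.7 and 121 FPKM in controlled phase II, against 30.5 and 30.1 FPKM in controlled phase I (log2 fold change 2.07 ± 0.080 SE, adjusted p = 2.26e-06), and 198 and 194 FPKM in uncontrolled phase II, against 209 and 211 FPKM in uncontrolled phase I (log2 fold change -0.10 ± 0.13 SE, adjusted p = 0.507).

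L23e YALI0_F17512g, also named as mitochondrial, had 29.1 and 30.0 FPKM in controlled phase II, against 19.9 and 23.5 FPKM in controlled phase I (log2 fold change 0.43 ± 0.10 SE, adjusted p = 0.00908), and its major partner L23e YALI0_D10263g had 1487 and 1429 FPKM in controlled phase II, against 226 and 219 FPKM in controlled phase I (log2 fold change 2.70 ± 0.033 SE, adjusted p = 2.95e-08). Without replicate 2 of controlled phase II the adjusted p of YALI0_F17512g was 0.0592. The 8 genes with ribosomal protein names of the bacterial type can be set beside these. All 8 rose in the controlled culture at the adjusted p (45.6% of all genes), with a median log2 fold change of 1.32 beside 0.13 over all genes. In the uncontrolled culture 1 rose (48.9% of all genes) and 5 fell (21.5%), with a median of -0.48 beside 0.49 over all genes. L17e YALI0_F01056g was the longest member, with a span of 3507 bases, against a longest span of 1535 bases among the 78, and its FPKM did not exceed 25.1 in any library. L28e YALI0_E14212g and S10e YALI0_C11473g, unnamed as well, rose in the controlled culture, as the named members did. L28e had 1629.6 and 1627 FPKM in controlled phase II, against 252 and 258 FPKM in controlled phase I, and S10e had 1461 and 1478 FPKM in controlled phase II, against 219 and 241 FPKM in controlled phase I.

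Some members lie next to each other when the genes of the deposited tables are ordered by their chromosome position in strain CLIB122. There were 7 such neighbouring pairs, and a gene absent from those tables would not be seen between them. They were LP1 YALI0_B12804g with L13e, and L13e with S16e YALI0_B12848g, on chromosome B (1719410 to 1724334 for the 3 genes), L39e YALI0_D05697g with S15Ae YALI0_D05731g, and S15Ae with S14e YALI0_D05753g, on chromosome D (733507 to 738532), L30e YALI0_E23562g with L24e YALI0_E23584g on chromosome E (2781327 to 2783019), and on chromosome F L21e YALI0_F05522g with S9e YALI0_F05544g (825473 to 828699) and S15e YALI0_F05803g with LP2 YALI0_F05808g (863070 to 864711). L39e and S15Ae are divergent with 225 bases between them, and S15e and LP2 with 304. None of these neighbours overlap. The sizes of their changes were close in some and apart in others. In the controlled culture L39e, which lines the exit tunnel, had 860.2 and 821 FPKM in controlled phase II, against 196 and 253 FPKM in controlled phase I (log2 fold change 1.91 ± 0.11 SE, adjusted p = 1.60e-05), beside 3.58 for S15Ae YALI0_D05731g. S15e had a log2 fold change of 2.95 ± 0.030 beside 3.24 ± 0.040 for LP2 (SE). L13e, LP1 YALI0_B12804g and S16e had log2 fold changes of 3.62, 3.59 and 3.28. The 88 members were spread over the 6 chromosomes, with 5 on A, 14 on B, 9 on C, 13 on D, 23 on E and 24 on F.

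Other genes of protein synthesis were described by lists taken from orthology names. Of all genes tested in the controlled culture, 9.52% rose past the fold change minimum, and 45.6% rose and 36.0% fell at the adjusted p alone. In the uncontrolled culture 11.3% rose and 5.01% fell past the minimum, and 48.9% rose at the adjusted p alone. The counts past the minimum of initiation factors and synthetases in the controlled culture were close to these shares or under them. So were those of biogenesis factors and of falling synthetases and proteasome subunits in the uncontrolled culture. Of 98 ribosome biogenesis factors, 66 rose past the fold change minimum in the controlled culture, with a median log2 fold change of 2.47, and 8 in the uncontrolled culture, with a median of 1.25. The examples with the highest mean were nucleolar protein 56 YALI0_D17116g, NSA2 YALI0_E10461g and H/ACA subunit 2 YALI0_F20768g, with 2.07, 1.03 and 3.04 in the controlled culture. Of 22 subunits of RNA polymerase I and III, which make ribosomal RNA and small RNAs, 9 rose past the minimum in the controlled culture and 0 in the uncontrolled culture, where 20 rose at the adjusted p alone, with medians of 1.57 and 1.14. Of 37 initiation factors 4 rose past it in the controlled culture and 0 in the uncontrolled culture, where 23 rose at the adjusted p alone, with medians of 1.32 and 0.56. Of 14 elongation and release factors 5 rose past it in the controlled culture, with a median of 1.68, and 2 in the uncontrolled one, with a median of 0.79. Elongation factor 1-alpha YALI0_C09141g, which brings aminoacyl-tRNAs to the ribosome, had a mean of 15391 FPKM in controlled phase II, against 6779 FPKM in controlled phase I, and 14843 FPKM in uncontrolled phase II, against 14089 FPKM in uncontrolled phase I. Its log2 fold change in the controlled culture was 1.18. Elongation factor 2 YALI0_A00352g, which moves the ribosome along the mRNA, had 2.72 there. Of 40 aminoacyl-tRNA synthetases 1 rose past the minimum in the controlled culture and 2 fell past it in the uncontrolled culture, with medians of 0.62 and -0.16. Of 39 proteasome subunits 0 passed it in the controlled culture, where 4 rose and 29 fell at the adjusted p alone with a median of -0.25, and 2 fell past it in the uncontrolled culture, with a median of 0.22, which is below the median of all genes there (0.49). The lists were not refitted under other scalings. The members thus had a higher median in the controlled culture than any of these lists, and in the uncontrolled culture a lower one than the biogenesis factors and the polymerase subunits. Whether the members differ from these lists was not tested.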

How the data were processed

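RNA was sequenced from 8 libraries of *Y. lipolytica* as paired-end reads. The deposited FPKM values per gene and library were made by the authors with TopHat2 (mapping, CLIB122 assembly) and Cufflinks (expression), versions not given in the sources used here. There were 6371 genes in the table of the controlled culture, 6386 in that of the uncontrolled culture and 6363 in both. A gene missing from 1 table was taken as 0 there. Gene positions are those of the deposited tables.

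Members were found from the orthology names in the tables. Members and gene lists were chosen with earlier results of these data known. Genes entered a comparison when 2 or more of its 4 libraries had an FPKM of 1 or higher, which all 88 members did. Their log2(FPKM + 1) values went into limma 3.58.1 in R 4.3.3 (group term, no block, empirical Bayes with trend, two-sided). The difference of the responses was fitted on all 8 libraries. P-values were adjusted over all genes tested, and calls needed an adjusted p under 0.05 and a log2 fold change of 2 or more in size. The calling rule was run on simulated data in which each gene had its own noise and the changes lay past the minimum. Those data held no shift shared by genes and no change near the minimum, so they do not bear on such cases. Approximate fragment numbers came from the steps between the lowest values of genes of at least 1500 bases. Shares are of the summed FPKM of all genes. Counts and shares were computed in Python 3.11.15 with pandas 2.3.3 and numpy 2.4.6, figures drawn with matplotlib 3.10.9.

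Named in the text were, in each comparison and in the difference of the responses, the 3 members with the highest and the 3 with the lowest log2 fold change, LP0, LP1, LP2, SAe, L40e and S27Ae, members sharing an orthology number, members that moved against the median at an adjusted p under 0.05, neighbouring members, and the 3 most abundant members of a group. The other lists were given by counts, medians and up to 3 examples of highest mean FPKM. S30e, L28e, S10e and those below the fold change minimum or not passing the test were named after their values were seen. Alternatives were a replicate block, FPKM + 0.1, no filter, median-of-ratios scaling with and without the members, an equal sum of the other genes, no fold change minimum, 1 fit on all 8 libraries, members with their own orthology entry only, each replicate left out and, chosen after seeing the data, members named as 40S or 60S proteins only.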

Additional observations from a re-analysis of the deposited data

Results flagged for a closer look

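The change of the members after glycerol limitation differed between the cultures in the limma test of the difference itself. With a log2 difference of at least 2, it was larger in the controlled culture for 48 of 88 members (6.85% of the 6278 genes tested). For 0 members it was smaller by as much (11.8%). The count of 48 was 69 with the median of ratios and 39 with the other genes scaled to an equal sum. For all genes the shares with these scalings were not counted, and 6.85% does not apply to them. There were 3 of 88 members that passed the test in opposite directions in the 2 cultures, where 18.8% of the 6145 genes tested in both did. L17e YALI0_F01056g fell in the controlled culture (-0.59) and rose in the uncontrolled culture (1.10), a difference of -1.69 with an adjusted p of 0.000392. L23e YALI0_F17512g rose in the controlled culture (0.43) and fell in the uncontrolled culture (-1.43), a difference of 1.86 with an adjusted p of 0.000161. Its change in the controlled culture did not pass without replicate 2 of controlled phase II (adjusted p = 0.0592). S5e YALI0_D08470g also rose in the controlled culture (1.80) and fell in the uncontrolled culture (-0.55), with a difference of 2.36 and an adjusted p of 3.99e-06. Its change in the uncontrolled culture did not pass with the other genes scaled to an equal sum (adjusted p = 0.0561) or without replicate 2 of uncontrolled phase II (0.0764). None of the 3 is among the 78 members named as 40S or 60S proteins.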

How the results depend on the processing

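In the controlled culture and between the cultures before glycerol limitation, the counts of members called higher or lower past the fold change minimum stayed within 1.5 times of 77 and 82 under every alternative. The counts near 0 moved. In the controlled culture, members called lower were 2 with no fold change minimum and 0 with their own orthology entry only or with 40S or 60S names only. In the uncontrolled culture, members called higher were 1 with an equal sum of the other genes, 80 with no minimum and 0 to 1 with a replicate left out, and members called lower were 1 with either median-of-ratios scaling, 3 with no minimum and 0 to 1 with a replicate left out. With no minimum, 2 were higher before and 84 lower after glycerol limitation in the controlled culture, and the difference of the responses passed for 85 and 3.

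The share of the summed FPKM with own orthology entries only was 12.2% in controlled phase II, 1.94% in controlled phase I and 18.9% in uncontrolled phase II, and with 40S or 60S names only 12.7% in controlled phase II and 2.04% in controlled phase I.

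In the uncontrolled culture LP0 turned to -0.38 with the median of ratios and -0.37 with that without the members, and lay between -0.035 (without replicate 1 of phase I) and 0.24 with a replicate left out. With these scalings S15Ae YALI0_F25399g turned to -0.11 and -0.097, S23e YALI0_A20746g to -0.081 and -0.067, and L35Ae YALI0_E31955g to -0.0022 with the first of them. L8e YALI0_D12606g turned to 0.13 with an equal sum of the other genes. After glycerol limitation, controlled over uncontrolled, L3e YALI0_C12496g turned to -0.078 and -0.089 with these scalings and lay between -0.30 (without replicate 2 of uncontrolled phase II) and 0.33 with a replicate left out. L17e YALI0_F01056g turned to 0.016 with an equal sum, and lay between -0.10 and 0.050 (without replicate 2 of controlled phase II) with a replicate left out. None of these passed the test in its turned direction, and the cause was not tested.

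The replicate numbers were not taken to pair the samples. In the 4 comparisons, deviations of same-numbered libraries had a correlation between -0.05 and 0.04 over all genes and between -0.29 and 0.08 over the members, and of -0.14 over the more abundant genes of the uncontrolled culture. With a replicate block 76 members rose in the uncontrolled culture at the adjusted p, against 80 without it. Past the minimum, 77 members rose in the controlled culture and 0 in the uncontrolled one, as without the block. For all genes the shares with the block were not counted. With 2 libraries per group the spread rests on few degrees of freedom, and the lowest member values rest on about 19 fragments.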
